A study of Rattus norvegicus with 6 samples.

Results

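The insulin-like growth factor (IGF) family is described here across 3 pools of rat hippocampal RNA by its 2 ligands (Igf1 and Igf2), its 2 receptors (Igf1r and Igf2r) and 5 of its binding proteins (Igfbp2, Igfbp3, Igfbp4, Igfbp5 and Igfbp6). The members were every probe of the array whose gene name was 1 of these 9 symbols, plus, for Igf2, the probe designed on the transcript sequence AA899573, which gave 16 probes among the 41012 probes of the array. Of these probes, 13 were printed as 1 spot, and 3, of Igf1, Igf1r and Igfbp3, were printed as 10 spots each. In both dye channels of all 6 arrays, 13 of the 16 member probes (81.2%) were well above background, against 60.3% of all probes. The other 3 were the probe designed on AA899573, the Igfbp4 probe A_44_P515317 and the Igfbp5 probe A_44_P285534.

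Male Wistar rats, 11 weeks old at the start of a preliminary rearing period before training, ran on a treadmill for 60 min a day, 5 times a week, for 6 weeks, and hippocampal gene expression was set against rest. The mild exercise group (ME) ran at 15 m/min, the intense exercise group (IE) ran at 40 m/min and the control group (CONT) rested on a treadmill. Both running groups had slight shocks while they were habituated to running. This habituation was longer in IE than in ME and counted within the 6 weeks. Some IE rats also received a few shocks during training, and IE rats that refused to run were excluded. The methods place tissue collection 2 days after the last session, whereas the sample records give 24 or 36 h. RNA of 5 rats was combined in each group, so the arrays hold 1 pool per group and carry no information on the spread among rats. Each pair of pools was hybridized on 2 arrays with the dyes Cy3 and Cy5 swapped, which measures the same RNA again, and the SD given with each mean below is the SD between these 2 arrays, not between rats. The ME vs CONT and IE vs CONT arrays shared a slide and the CONT pool. The IE vs ME arrays were on another slide, so slide and comparison cannot be told apart.

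IGF1 and IGF2 are small secreted growth factors that act mainly through the IGF1 receptor, a tyrosine kinase that signals through insulin receptor substrates and the PI3K-AKT pathway. The IGF2 receptor, which is also the cation-independent mannose-6-phosphate receptor, takes up IGF2 and delivers it to lysosomes. The binding proteins hold IGFs in extracellular fluid and set how much reaches the receptors. In the adult brain, Igf2 transcripts are known chiefly from the choroid plexus and the leptomeninges, and Igf1 from scattered neurons and from glia.

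The 2 Igf2 probes are shown by sequence because they overlap on chromosome 1 and carry opposite strands. The probe designed on NM_031511 (A_44_P1037953) lies at chr1:203094707-203094766 of the rat build rn3 on the minus strand, the strand of the Igf2 gene. The probe designed on AA899573 (A_44_P397401) lies at chr1:203094747-203094806 on the plus strand. The first 30 of the 60 bases of each probe are printed 5′ to 3′, and capitals mark the 20 bases of chr1:203094747-203094766 that both cover, which are reverse complements of each other.
NM_031511 probe: TTCTGGCAAAATCCAAAGCTtgggttttgt
AA899573 probe: AGCTTTGGATTTTGCCAGAAaatgcatgtt
Set against the gene strands of RefSeq (GRCr8), 15 of the 16 member probes carried the strand of their gene, and the AA899573 probe was the exception. Over the array, 96.1% of 12795 probes that could be placed this way carried the strand of their gene. The AA899573 probe is therefore described apart from the Igf2 probe below, and which transcript it reads was not tested.

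A probe was called when the ratio of the pools was past the same range on both arrays of a dye swap (Cy5/Cy3 of at least 1.5 on 1 array and at most 0.75 on the swapped array) with a p below 0.01 on each array. That p comes from the error model of the scanner software and compares 2 pools on 1 array. Log2 ratios are the first-named pool over the second, and signals are the processed, dye-normalized intensities in arbitrary units. In bulk tissue, fewer cells of a type and less RNA per cell cannot be told apart.

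In mild exercise, Igf2 and Igfbp2 were the members called higher than in CONT, and the Igfbp2 call was lost under both other background corrections tried. Of the 16 member probes, 2 (12.5%) were called in ME vs CONT, both up-regulated, where 0.122% of all 41012 probes were called and 0.11% were called up-regulated. Without the p threshold the count was 3 (18.8%), the third being the AA899573 probe, against 0.985% of all probes. In IE vs CONT none of the 16 was called, against 0.0293% of all probes, and without the p threshold the count was again 0, against 0.666%. In IE vs ME 1 of 16 (6.25%) was called, Igf2, lower in IE, against 0.0731% of all probes and 0.061% called lower. From 1 array alone, with the same limits, the IE vs ME count was 5 of 16 without array 1 and 2 of 16 without array 2, where 7.73% and 7.87% of all probes were called. The median log2 ratio of the 16 probes was 0.023 in ME vs CONT, 0.0034 in IE vs CONT and -0.026 in IE vs ME, beside medians of 0, 0 and -0.0016 over all probes with a ratio. Most of the family sat near 0, as did most of the array, with 12, 16 and 11 of the 16 means within 0.25 of 0 in the 3 comparisons. Over all probes with a ratio, 34920 of 40922, 35571 of 40957 and 32469 of 41009 did so. The share near 0 was thus smaller in the family than in the array in both comparisons with ME.

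**Figure D1:**
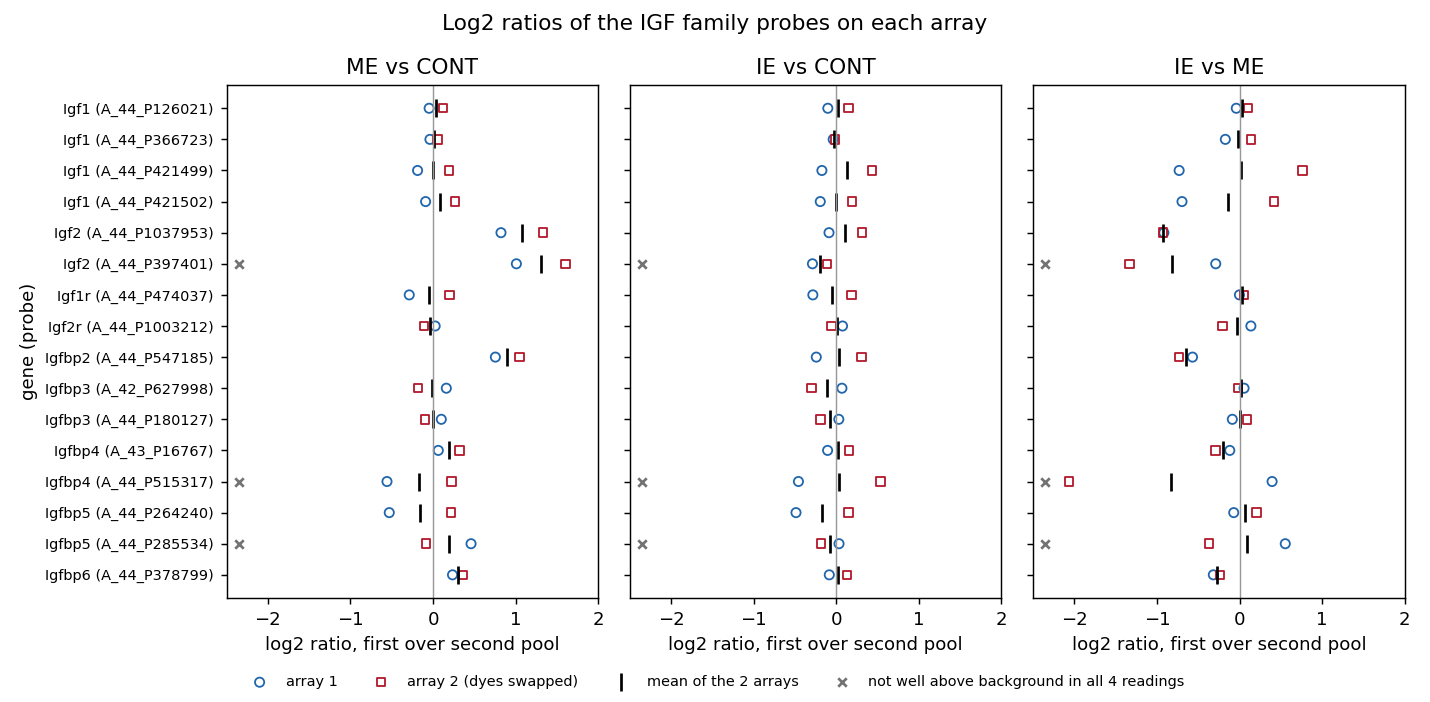
Log2 ratio of the first-named over the second-named pool (horizontal axis) for the 16 probes of the IGF family (rows) in each comparison; circles and squares are the 2 arrays of a dye swap, bars their mean, and crosses mark probes not well above background in all 4 readings. Igf2 (A_44_P1037953) lies at 0.82 and 1.33 in ME vs CONT and at -0.92 and -0.93 in IE vs ME, while all 16 means of IE vs CONT lie between -0.20 and 0.13.

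Among the ligands, Igf2 differed between pools and Igf1 was not called. Igf2 encodes a growth factor best known from fetal growth and from the brain's coverings. Its probe on the Igf2 strand read 2527 and 2003 in CONT and 4469 and 5049 in ME on the 2 ME vs CONT arrays, so that both ME readings lay above both CONT readings. The log2 ratio was 0.82 on array 1 (software p of 0.000155) and 1.33 on array 2 (software p of 2.06e-08), with a mean of 1.08 ± 0.36 (SD between 2 arrays), a 2.11-fold higher level in ME. Among the 28896 probes well above background in this comparison, it had the 14th highest ratio.

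In IE the same probe read 2144 and 2402 beside CONT readings of 2279 and 1937, so the pools overlapped. The log2 ratio of IE over CONT was -0.088 on one array and 0.31 on the other, with a mean of 0.11 ± 0.28 (SD between 2 arrays), smaller than the SD between arrays. Set directly against each other, ME read 2558 and 2511 and IE 1356 and 1318. Both IE readings were below both ME readings, with log2 ratios of -0.92 (software p of 3.3e-05) and -0.93 (software p of 2.6e-05), a mean of -0.92 ± 0.0093 (SD between 2 arrays) and the 14th lowest ratio of 25803 probes. Processed signals of the IE vs ME slide are on another scale than those of the first slide, and only ratios are carried across.

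**Figure D2:**
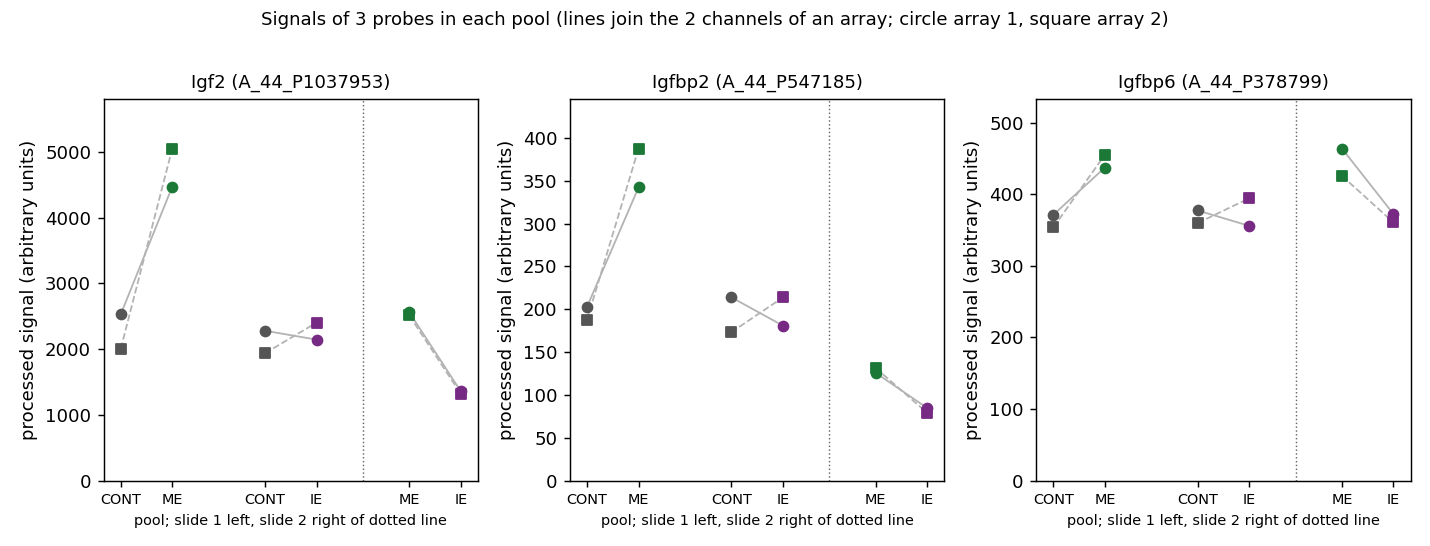
Processed signal (vertical axis, arbitrary units, from 0) of Igf2, Igfbp2 and Igfbp6 in each pool; lines join the 2 channels of an array, circles are array 1, squares array 2 with the dyes swapped, and the dotted line separates the slides. For Igf2 and Igfbp2 the ME readings lie above the other pool on each of the 4 arrays that carry ME, and the IE and CONT readings overlap.

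The AA899573 probe was dim in every pool. It read 4.84 to 9.11 in the 4 CONT readings of the first slide, 14 and 14.7 in ME and 7.46 and 6.80 in IE, with 0 of 4 CONT readings, 1 of 2 ME readings and 0 of 2 IE readings well above background. Its log2 ratio of ME over CONT was 1.01 and 1.6, with software p of 0.0682 and 0.0383, so it was not called, although both ratios were past the fold range. With normexp correction and loess its mean ratio in ME vs CONT was 0.050, and with loess and no background subtraction 0.14, in place of 1.31. The log2 ratio was -0.29 and -0.12 in IE vs CONT and -0.29 and -1.34 in IE vs ME, where neither comparison gave a call.

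Igf1, the main mediator of growth hormone action and a growth factor for neurons, had 4 probes, all well above background and none called. The probe A_44_P366723, at chr7:24624986-24625045, read 943 to 1062 in CONT, 978 and 1034 in ME, and 968 and 1027 in IE, so that the ME and IE readings lay inside the CONT range. Its log2 ratio was 0.0076 ± 0.064 in ME, -0.025 ± 0.017 in IE and -0.016 ± 0.22 for IE over ME (SD between 2 arrays). The probe A_44_P126021, whose 60 bases are spread over 5094 bases of chr7:24552241-24557334, gave 0.038 ± 0.12, 0.023 ± 0.18 and 0.030 ± 0.099.

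The other 2 Igf1 probes were dimmer and followed the dye more than the pool. A_44_P421499 gave -0.73 (software p of 0.00897) and 0.76 (software p of 0.0027) for IE over ME, 2 ratios of opposite sign in which the Cy3 channel was the brighter on both arrays. The mean Cy5/Cy3 of this pair, in which a difference between pools cancels, was -0.75 on the log2 scale, beside a mean IE over ME ratio of 0.016 ± 1.06. A_44_P421502, printed as 10 spots, gave -0.70 and 0.42 on the same arrays and a mean of -0.14 ± 0.79. In ME vs CONT these 2 probes had means of 0.0044 ± 0.27 and 0.088 ± 0.25, and in IE vs CONT 0.13 ± 0.43 and -0.0010 ± 0.27.

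Neither receptor was called in any comparison. Igf1r, the signalling receptor, was read by a 10-spot probe at chr1:123067493-123067552, and its log2 ratio was -0.29 and 0.20 on the arrays of ME vs CONT and -0.28 and 0.19 on those of IE vs CONT. The means were -0.044 ± 0.34 and -0.048 ± 0.33 (SD between 2 arrays), and Cy3 was again the brighter dye on all 4 arrays. Averaged over the dye swap, the 9 Igf1r spots kept on both ME vs CONT arrays lay between -0.13 and 0.0014, with an SD over spots of 0.037, and none was past the fold range. In IE vs ME the ratio was 0.027 ± 0.040 with 9 spots kept on both arrays. The spots of 1 array share their RNA and labelling, so this spread is that of printing and scanning.

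Igf2r, the receptor that clears IGF2, read 3348 to 3451 in CONT, 3151 and 3407 in ME, and 3310 and 3543 in IE. The readings of the 3 pools overlapped. Its log2 ratio was -0.041 ± 0.094 in ME vs CONT, 0.0077 ± 0.096 in IE vs CONT and -0.036 ± 0.24 in IE vs ME.

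Of the binding proteins, Igfbp2 was called up-regulated in ME. Igfbp2 encodes a binding protein abundant in brain and cerebrospinal fluid, and its 1 probe lies at chr9:72114139-72114198. It read 203 and 188 in CONT and 342 and 388 in ME, so both ME readings were above both CONT readings. The log2 ratio was 0.75 on array 1 (software p of 0.000481) and 1.05 on array 2 (software p of 3.94e-06), with a mean of 0.90 ± 0.21 (SD between 2 arrays), 1.87-fold, the 26th highest of the 28896 probes well above background. In IE it read 181 and 214 beside 214 and 173 in CONT, and the mean ratio was 0.031 ± 0.39.

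Set directly against ME, Igfbp2 read 84.8 and 79.1 in IE and 126 and 132 in ME. Both IE readings were the lower, with log2 ratios of -0.57 (software p of 0.0113) and -0.73 (software p of 0.00164) and a mean of -0.65 ± 0.12. The p of array 1 missed the threshold of 0.01, so this ratio was not called with the p threshold and was called without it, where 1.06% of all probes were. The Igfbp2 call in ME vs CONT also depended on the background correction: with normexp correction and loess the ratio was 0.60, and with loess and no background subtraction 0.67, and neither gave a call.

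Igfbp6, a binding protein that prefers IGF2, was not called, and its ratios were small. It read 371 and 354 in CONT against 437 and 455 in ME, and 464 and 426 in ME against 372 and 361 in IE. The ME readings were thus the higher on all 4 arrays that carry ME. The log2 ratio was 0.30 ± 0.091 in ME vs CONT (software p of 0.251 and 0.0789), 0.024 ± 0.15 in IE vs CONT and -0.28 ± 0.055 in IE vs ME (software p of 0.125 and 0.246). Both ratios with ME exceeded the SD between arrays, and each array stayed inside the fold range.

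Igfbp4, which mostly restrains IGF action, had a bright and a dim probe. The bright one, A_43_P16767 at chr10:87848583-87848642, read 1268 to 1438 in CONT, 1477 and 1583 in ME, and 1337 and 1462 in IE on the first slide. Its log2 ratio was 0.19 ± 0.18 in ME vs CONT, 0.025 ± 0.18 in IE vs CONT and -0.21 ± 0.12 in IE vs ME, with no call. The dim one, A_44_P515317, did not repeat between arrays: it gave -0.56 and 0.22 in ME vs CONT, -0.46 and 0.53 in IE vs CONT, and 0.39 and -2.06 in IE vs ME.

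Igfbp3, the main carrier of IGFs in blood, was not called on either probe. A_42_P627998 gave -0.011 ± 0.24, -0.12 ± 0.26 and 0.018 ± 0.052 in the 3 comparisons, in the order ME and IE over CONT and IE over ME. The 10-spot probe A_44_P180127 gave 0.0017 ± 0.14, -0.082 ± 0.16 and 0.00022 ± 0.12, with an SD over spots of 0.021 to 0.041, and none of its spots was past the fold range. Both Igfbp3 probes thus stayed near 0.

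Igfbp5, a binding protein of bone, muscle and brain, lies beside Igfbp2 on chromosome 9 on the opposite strand, its probes at chr9:72147294-72147353 and chr9:72150641-72150700. The brighter probe, A_44_P264240, gave -0.53 (software p of 0.0117) and 0.22 in ME vs CONT and -0.49 (software p of 0.0201) and 0.15 in IE vs CONT, which again follows the dye. Its means were -0.16 ± 0.53, -0.17 ± 0.45 and 0.066 ± 0.19 in the 3 comparisons, none of them called. The dim probe A_44_P285534 gave 0.19 ± 0.39, -0.075 ± 0.15 and 0.093 ± 0.65. The neighbour of Igfbp2 was therefore not called in any comparison.

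How far the dyes set these values was counted probe by probe. The mean Cy5/Cy3 of a pair was larger than the ratio of the pools for 11 of the 16 member probes in ME vs CONT, 14 in IE vs CONT and 11 in IE vs ME. The 2 arrays had the same direction for 5, 2 and 5 probes. In ME vs CONT the 5 were both Igf2 probes, Igfbp2, Igfbp6 and the bright Igfbp4 probe, all higher in ME. In IE vs ME, which shares the ME pool with it, the 5 were both Igf2 probes, Igfbp2, Igfbp6 and the bright Igfbp4 probe, all lower in IE. In IE vs CONT the 2 were the AA899573 probe and Igf1 A_44_P366723.

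The 3 comparisons form a loop, so IE over ME can be reached through CONT on the first slide as well as directly on the second. For Igf2 the route through CONT gave -0.97 and the direct ratio -0.92. For Igfbp2 these were -0.87 and -0.65, and for Igfbp6 -0.28 on both routes. All 13 member probes well above background on the 6 arrays closed the loop to within 0.25, with a median gap of 0.050, and 23191 of 24716 such probes on the array did so, with a median gap of 0.058. The largest member gap was that of the dim Igfbp4 probe, with 0.20 through CONT and -0.83 directly. The pools are the same on both routes, so this compares hybridizations, not animals.

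**Figure D3:**
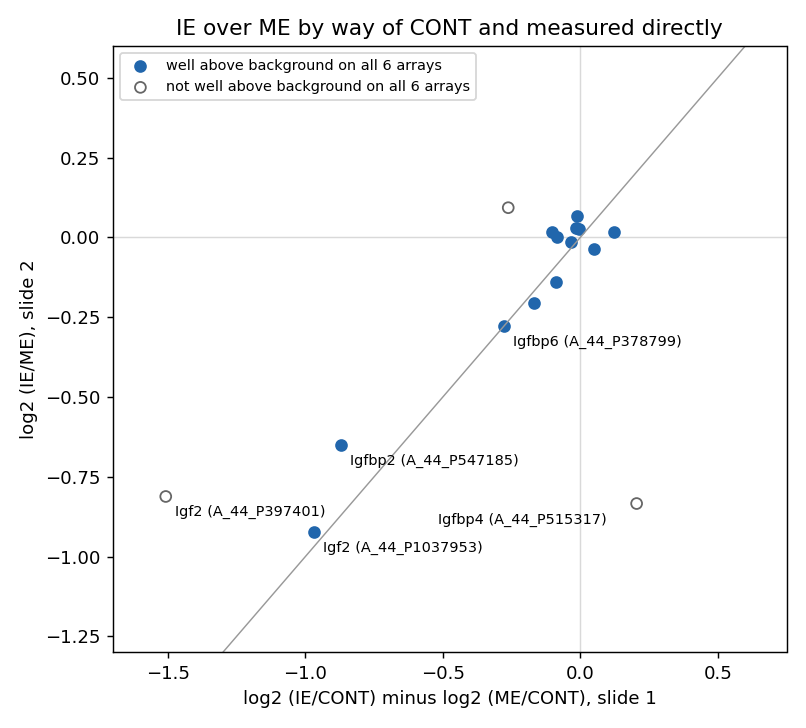
Log2 ratio of IE over ME measured directly on the second slide (vertical axis) against the difference of the IE vs CONT and ME vs CONT ratios on the first slide (horizontal axis), 1 point a member probe, with the line of equality. Igf2 (-0.97 and -0.92), Igfbp2 (-0.87 and -0.65) and Igfbp6 (-0.28 and -0.28) lie away from 0 on both axes, and the open points, not well above background on all 6 arrays, lie farthest from the line.

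The wider pathway was read by 2 lists. The other genes of the IGF axis (growth hormone, its receptor, insulin, the insulin receptor family, Igfbp1, the acid-labile subunit, pappalysin, stanniocalcins and IGF2 mRNA-binding proteins) had 16 of 19 genes on the array, by 21 probes, and H19, Igfbp7 and Pappa2 were not matched to a probe. None was called up- or down-regulated in any comparison, over 20 probes with a ratio on both arrays in ME vs CONT and in IE vs CONT and 21 in IE vs ME. An Igf2bp3 probe had no such ratio in the comparisons with CONT. Of all probes, 0.122%, 0.0293% and 0.0731% were called, so a list this short would mostly hold no call. Median log2 ratios of the list were 0.014, 0.022 and 0.046 in the same order. The insulin receptor gene, Insr, gave -0.023 ± 0.39, 0.023 ± 0.17 and -0.0065 ± 1.01. The brighter probe of Insrr, an insulin receptor-related receptor, gave -0.078 ± 0.23 in ME vs CONT and -0.0072 ± 0.36 in IE vs CONT.

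No probe for signalling below the receptor was called either. All 21 genes of the list, from the insulin receptor substrates through PI3K, Pdpk1, the Akt genes, Mtor, Gsk3b and the Foxo genes, were found by 30 probes, and 0 of the 30 were called in each comparison, with medians of -0.0095, -0.020 and -0.012. The 4 probes of Irs2, an adaptor of insulin and IGF receptors, had means between -0.024 and 0.037 in ME vs CONT and between -0.15 and 0.20 in IE vs CONT. Irs1, its relative, was well above background in 0 of 4 readings in each comparison against CONT and gave -0.21 ± 0.36 and -0.062 ± 0.19. At the shares of all probes given above, 30 probes would mostly hold no call, so the counts of 0 say little about the pathway. They rest on the call rule, not on a test across animals, and without the p threshold they were also 0 in both comparisons with CONT. In IE vs ME without it, Stc2 in the first list (-0.69 ± 0.031) and Irs4 in the second (-1.23 ± 0.10) passed the fold range, with 1 and 0 of 4 readings well above background.

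**Figure D4:**
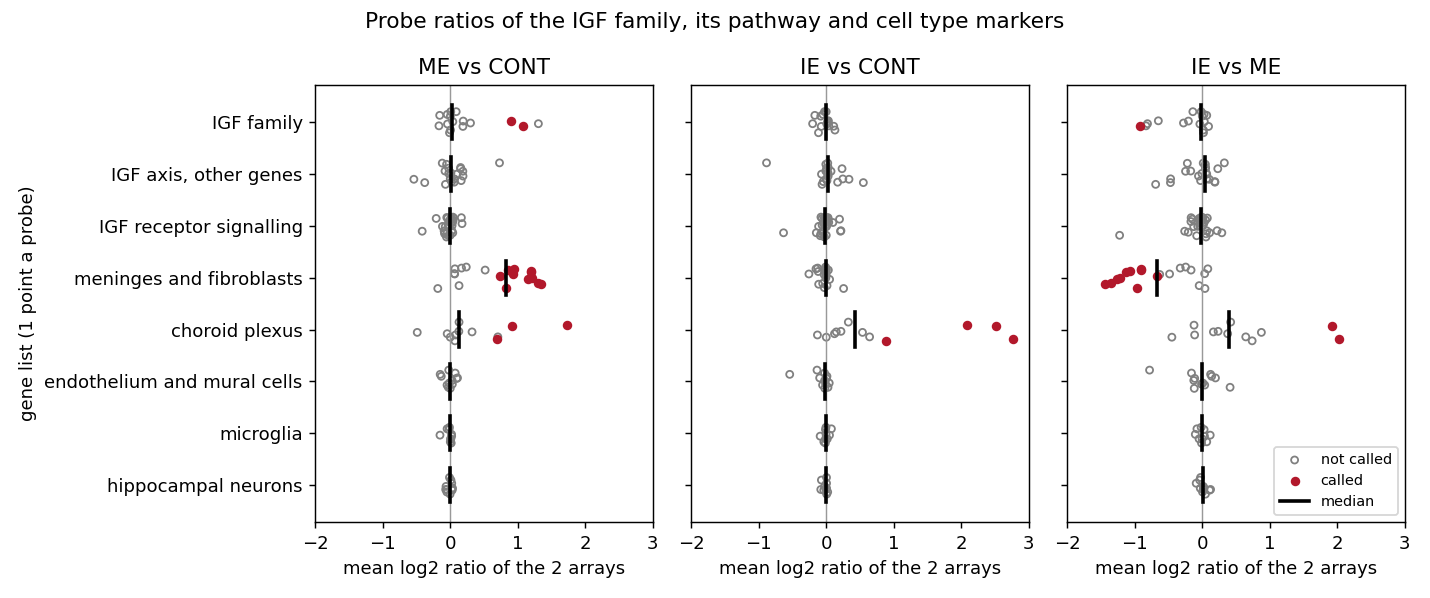
Mean log2 ratio of the 2 arrays (horizontal axis) for each probe (points) of the IGF family, its pathway lists and cell type marker lists (rows), with called probes filled and medians as bars. The cerebellar list is not shown. The pathway lists hold no called probe, and the meninges and fibroblasts list has medians of 0.83, -0.011 and -0.67 from left to right.

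The genes with the pattern most like Igf2 were named by the distance between log2 ratios over the 6 arrays, among 24715 other probes well above background on all of them. In order they were Thbs2, a matrix glycoprotein (0.384), Igfbp2 (0.520), Slc6a13, a GABA and taurine transporter (0.540), and the collagen I genes Col1a2 (0.548) and Col1a1 (0.610). These are the nearest named genes: the second nearest of all probes carried only a locus identifier, and Igfbp2 was the third. The Col1a1 probe is A_44_P238421, and the other Col1a1 probes, A_44_P350521 and A_44_P419137, were not called, with ratios of 0.24 ± 0.098 and 0.13 ± 0.071 in ME vs CONT and -0.25 ± 0.080 and -0.046 ± 0.16 in IE vs ME. Slc6a13, Col1a2 and Col1a1 also stand in the list of meningeal markers described next. That list was chosen with earlier results of these data known, so the overlap is not independent of them. Thbs2 had log2 ratios of 0.83 and 1.06 in ME vs CONT, -0.094 and 0.13 in IE vs CONT, and -0.72 and -0.93 in IE vs ME. These ratios share pools, so the distance describes likeness on 6 arrays and not across animals.

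Many markers of the meninges and their fibroblasts moved with Igf2 and Igfbp2. Of 19 probes for 14 of 15 listed genes, 11 were called up-regulated in ME vs CONT (median 0.83), 0 in IE vs CONT (median -0.011), and 10 lower in IE vs ME (median -0.67). Of all probes, 0.11% were called up-regulated in ME vs CONT and 0.061% lower in IE vs ME. Col1a2 and Ogn were counted by both of their probes. The list was chosen with earlier results of these data known, so these counts are a description. The summed signal of the 14 genes was 15296 to 15401 in CONT and 34733 to 37004 in ME on the ME vs CONT arrays, 14896 to 15357 in CONT and 14196 to 14233 in IE on the IE vs CONT arrays, and 35402 to 42754 in ME and 15017 to 15519 in IE on the IE vs ME arrays. In every channel at least 12 of the 14 genes were well above background. The part of these cells in the Igf2 and Igfbp2 ratios was not tested.

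The called markers included Col1a2, a chain of collagen I (1.21 ± 0.051 in ME vs CONT for probe A_43_P12783), Ogn, a small matrix proteoglycan (1.31 ± 0.14 for A_43_P16740), and Ptgds, a prostaglandin D synthase of the leptomeninges (1.34 ± 0.083). Dcn and Lum, 2 further matrix proteoglycans of fibroblasts, had ratios of 0.17 ± 0.11 and 0.066 ± 0.021 and were not called. Also not called were Slc22a6 (0.52 ± 0.035), Lama1 (0.069 ± 0.69) and both Cyp1b1 probes (-0.18 ± 0.25 and 0.061 ± 0.25).

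Some markers of the choroid plexus, where Igf2 is also known, were highest in IE. Of 12 probes, 3 were called up-regulated in ME vs CONT, 4 in IE vs CONT and 2 in IE vs ME, higher in IE. Of all probes, 0.122%, 0.0293% and 0.0731% were called in either direction, and 45, 10 and 5 of 41012 were called higher. The 2 in IE vs ME were Ttr and Sostdc1. Ttr, the thyroid hormone carrier made by the plexus, had log2 ratios of 0.91 ± 0.24, 2.51 ± 0.35 and 1.92 ± 0.071. Those of Sostdc1 were 0.69 ± 0.14, 2.76 ± 0.49 and 2.03 ± 0.68. Kcnj13, called in both comparisons with CONT, had 1.73 ± 0.62, 2.09 ± 0.23 and -0.12 ± 0.42. The summed signal of the 11 genes was 714 to 797 in CONT and 1229 to 1233 in ME on the arrays that compare them, and 842 to 1060 in CONT and 3967 to 4246 in IE on theirs. The Otx2 probe A_44_P561510 was also called in IE vs CONT (0.89 ± 0.065), and the Otx2 probe A_44_P416824 was not (0.15 ± 0.087). Aqp1, Clic6, Folr1, Kl, Prlr and Slc4a5 were not called in any comparison. The medians of the list were 0.13, 0.43 and 0.40 in the 3 comparisons. Cldn2, a tight junction gene of the plexus, was not well above background in any reading. The part of the plexus in the Igf2 ratios was not tested.

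Endothelial and mural cell markers (12 probes), microglial markers (10 probes) and hippocampal neuron markers (11 probes) had no called probe in any comparison. With 0.122%, 0.0293% and 0.0731% of all probes called in the 3 comparisons, lists this short would mostly hold no call. The 8 hippocampal neuron genes were all well above background on the first slide and at least 6 of 8 on the second, and their log2 ratios stayed between -0.090 and 0.12. Of 6 probes for 6 of 8 cerebellar markers, 1 was called in ME vs CONT, 0 in IE vs CONT and 0 in IE vs ME. Their median was 0.19 in ME vs CONT and -0.47 in IE vs ME. The called one, Gabra6, a GABA-A receptor subunit of granule cells, had a log2 ratio of 2.78 ± 0.19 in ME vs CONT. Its CONT readings were not well above background, so the size of this ratio is uncertain. Car8 had 0.54 ± 0.38 in ME vs CONT and -0.38 ± 0.96 in IE vs ME, and Pcp2 0.31 ± 0.14 and -0.56 ± 0.048. Neurod1 had -0.020 ± 0.077 and Calb2 0.070 ± 0.096 in ME vs CONT, and En2 was not well above background there. The part of cerebellar cells in the IGF family ratios was not tested.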

How the data were processed

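In all, 6 2-colour Agilent arrays of pooled rat hippocampal RNA were analysed, 2 dye-swapped arrays for each of 3 comparisons. The authors extracted the spots with Agilent Feature Extraction 9.5.3.1 on the slide with CONT and, per the file headers, 11.0.1.1 on the IE vs ME slide. The log10 ratio deposited for each spot is Cy5 over Cy3 after background subtraction and dye normalization by the software. The deposited p-value comes from the error model of the software. The deposited processed signal is an intensity on a linear scale.

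Spots flagged as outliers were left out (92 to 302 spots per array), the log ratios of repeated spots were averaged per probe, with the median of their p. Ratios were turned to log2 with the first-named pool on top. The sample records number the arrays of a dye swap as separate pools, and the methods, which describe 1 pool per group, were followed. Depth has no counterpart here. The share of spots well above background in Cy3 and Cy5 was 66.5% to 74.4% per array, and 0 were saturated. The number of arrays limits the precision. Probe coordinates are those of build rn3 in the files, and exon or UTR positions were not used here. Strands were compared with the RefSeq promoter table (GRCr8), and marker names were also matched through RefSeq accessions.

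The members and the lists were chosen with earlier results of these data known. The text names every member, the called probes of 2 pathway lists plus Irs1, Irs2, Insr and Insrr, and the 5 genes nearest to Igf2. For the cell type lists it gives the counts, and medians of the meningeal, choroid plexus and cerebellar lists only. Called or uncalled members of these lists were chosen after their values were seen. Alternatives dropped the p threshold, took the mean fold of both arrays, asked for 1.5-fold on each array, kept bright probes only, kept outliers, used 1 array alone, used normexp (offset 50) or no background subtraction before loess in limma 3.58.1 (R 4.3.3), took the value table of the authors, or fitted all arrays jointly by least squares. Values were computed with Python 3.11.15, numpy 2.4.6 and pandas 2.3.3. The call rule was tested on simulated data. Their noise and p came from the same software error, without dye effects or differences among rats, so the test cannot show how the rule handles those.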

Additional observations from a re-analysis of the deposited data

Results flagged for a closer look

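The Igf2 probe on the strand of the gene differed between the exercise groups when they were set against each other, with a log2 ratio of IE over ME of -0.92 (-0.92 and -0.93 on the 2 arrays), which rests on 1 pool per group and not on a test across rats. For the AA899573 probe, the log2 ratios over CONT were above 0 on both ME arrays and below 0 on both IE arrays, and the IE ratio minus the ME ratio was -1.51. That difference was not tested and is mostly one between readings at background, since 0 of 4 CONT, 0 of 2 IE and 1 of 2 ME readings on those arrays were well above background. Measured directly, IE over ME was -0.29 and -1.34, a mean of -0.81 ± 0.74 (SD between 2 arrays) that was not called. With normexp correction and loess the ratios over CONT were 0.050 in ME and -0.0028 in IE.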

How the results depend on the processing

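No paired analysis was possible because the RNA of a group was combined into 1 pool, and both arrays of a dye swap read it. With normexp correction and loess, and with loess and no background subtraction, 1 member probe was called in ME vs CONT in place of 2, the Igfbp2 ratio being 0.60 and 0.67. The background was then 14 and 19 called probes of the whole array in place of 50. Without the p threshold, 2 members were called in IE vs ME in place of 1. From 1 array alone, IE vs ME gave 2 to 5 called members, 5 without array 1 and 2 without array 2, where 3172 and 3226 probes of the whole array were called in place of 30. The ratio of Igf1 A_44_P421499 turned from 0.016 to -0.73 without array 2 and was 0.76 without array 1. The joint fit put Igf2 at -0.94 in IE vs ME, a move beyond the small SD between arrays. The AA899573 probe had 0.050 with normexp and 0.14 without background subtraction in ME vs CONT, in place of 1.31. For these changes the cause was not tested. Igf2 on its own strand was called in ME vs CONT and in IE vs ME under each alternative that gives a call, with ratios of 0.82 to 1.33 and of -0.93 to -0.87. Of 441 values for the other 15 probes under the alternatives, 426 kept their direction and their side of the limits or moved by less than the SD. This count says little, because changes of the call rule leave a ratio as it is. Taking 1 of 2 arrays always moves the mean by less than the SD between them. Under normexp with loess, and under loess without background subtraction, 41 values stayed the same in each setting, while 3 moved and 1 was weaker. Dim probes had no stable ratio.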
